A study of Mus musculus with 6 samples.

Results

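The transcription factors that set and hold the identity of Sertoli cells were followed here in testes from which ATRX had been removed in those cells. They were taken by name: Sox9, Sox8, Wt1, Gata4, Gata1, Gata6, Dmrt1, Nr5a1 and Tcf21. Of these 9 genes, 8 had a row among the 30774 gene rows of the normalized table, and Wt1 was not analysed here. RNA came from 3 ScAtrxKO testes and 3 wild-type testes of male C57BL/6 mice aged 12 days (P12), each on 1 array of the Illumina MouseWG-6 v2.0 BeadChip, which carries probes on beads and is read in 1 colour. In ScAtrxKO mice a floxed Atrx gene (from Atrx flox/flox mice) was inactivated by AMH-Cre/+, a Cre recombinase driven by the promoter of anti-Mullerian hormone, which is active in Sertoli cells. The sources used here do not say whether the wild-type testes carried a floxed allele or the Cre transgene, nor whether each testis was taken from a different mouse. The p-values therefore cover the spread among these 6 samples, which may be technical.

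Sertoli cells are the nurse cells of the seminiferous tubule. SOX9, switched on by SRY in the fetal gonad, drives their differentiation, and its relative SOX8 takes over part of its work in later life. GATA4, GATA6 and the orphan nuclear receptor NR5A1 (also called SF-1) act in Sertoli and in steroid-producing Leydig cells, GATA1 in postnatal Sertoli cells and in red blood cell and mast cell precursors, and DMRT1 in Sertoli cells and spermatogonia. TCF21 is a basic helix-loop-helix factor best known from gonadal mesenchyme, so that the group as named is not made up of factors of Sertoli cells alone. These proteins bind the promoters of genes such as Amh, and in mouse the loss of DMRT1 from Sertoli cells turns on genes of ovarian granulosa cells.

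None of the 8 measured transcription factors changed past the test in ScAtrxKO testes. All 8 were detected on all 6 arrays (detection p under 0.01) and were tested with limma among 13026 gene rows, of which 7.47% rose and 5.50% fell in the ScAtrxKO genotype at a Benjamini-Hochberg adjusted p under 0.05. Among the transcription factors 0 of 8 passed, with adjusted p-values of 0.119 to 0.776, and 2 of 8 had an unadjusted p under 0.05, against 28.8% of all tested rows. Their log2 fold changes lay between -0.15 and 0.17, 5 above 0 and 3 below, with a median of 0.07 beside -0.01 for all tested rows. The median size of the change, whatever its sign, was 0.09 for the transcription factors and 0.07 for all tested rows. The 3 ScAtrxKO values stood apart from the 3 wild-type values for 3 of the 8 (37.5%), namely Tcf21, Nr5a1 and Gata1, as they did for 33.8% of all tested rows. A p that misses the threshold does not show that the levels were equal, and the intervals below give the changes that the arrays leave possible.

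**Figure D1:**
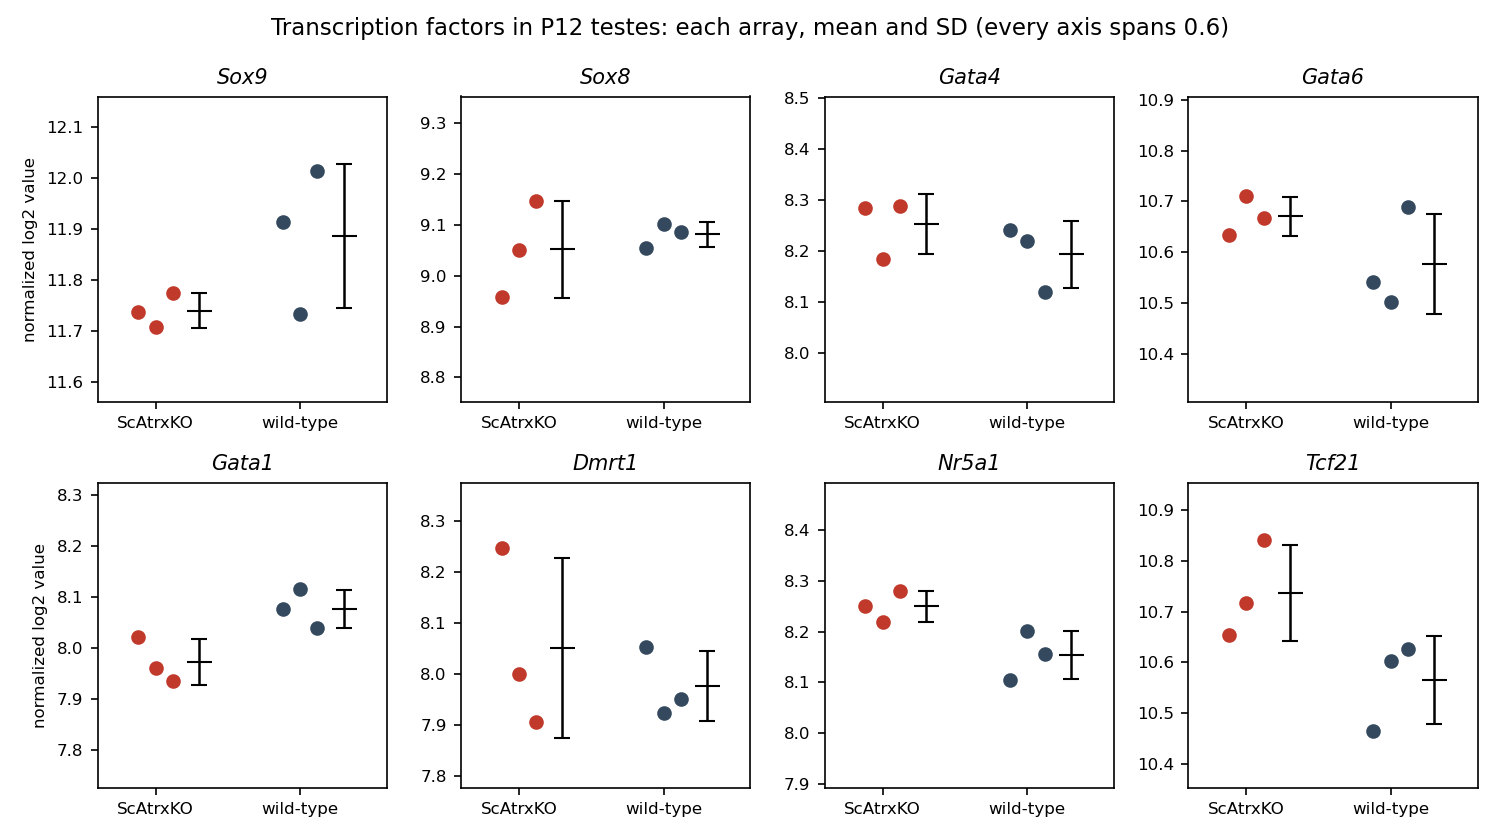
Normalized log2 value (vertical axis, the same span in each panel) of each transcription factor in the 3 ScAtrxKO testes (red, replicates 1 to 3 from left to right) and the 3 wild-type testes (dark blue), with the mean and SD of each genotype beside the points. The genotypes are apart for Gata1, Nr5a1 and Tcf21 and overlap for the other 5.

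Sox9 had normalized log2 values of 11.74, 11.71 and 11.77 in ScAtrxKO replicates 1 to 3, against 11.91, 11.73 and 12.01 in wild-type replicates 1 to 3. The ScAtrxKO values were close together, and wild-type replicate 2 lay among them while the other 2 wild-type values were higher. The log2 fold change was -0.15 (standard error 0.0701, 95% interval -0.31 to 0.01, limma adjusted p = 0.213). Without wild-type replicate 2 it was -0.22 (adjusted p = 0.0594), and without wild-type replicate 3 it was -0.08 (adjusted p = 0.449), so this single value rests on which wild-type arrays are kept. Sox8, its close relative, had values of 8.96, 9.05 and 9.15 in ScAtrxKO testes, against 9.05, 9.10 and 9.09 in wild-type testes. The ScAtrxKO values enclosed all wild-type values, and the log2 fold change was -0.03 (95% interval -0.16 to 0.10, adjusted p = 0.776). For both SOX factors an interval of this kind leaves out a 1.5-fold change in either direction on the deposited scale.

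The GATA factors bind the sequence that gives them their name through paired zinc fingers. Gata4 had values of 8.28, 8.18 and 8.29 in ScAtrxKO testes, against 8.24, 8.22 and 8.12 in wild-type testes. ScAtrxKO replicate 2 lay below 2 of the wild-type values, and the log2 fold change was 0.06 (95% interval -0.06 to 0.18, adjusted p = 0.505). Before normalization between arrays, however, its background-subtracted intensities did not overlap, with 132, 144 and 182 in ScAtrxKO testes and 125, 123 and 94.9 in wild-type testes. ScAtrxKO replicates 2 and 3 were brighter as whole arrays at that stage (mean intensity 469 and 458, against 349.8 for ScAtrxKO replicate 1 and 368 to 381 for the wild-type arrays). Of all tested rows 22.5% did not overlap at that stage, and 3 of the 8 transcription factors did not: Gata4, Nr5a1 and Gata1.

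Gata6 had normalized log2 values of 10.63, 10.71 and 10.67 in ScAtrxKO testes, against 10.54, 10.50 and 10.69 in wild-type testes. Wild-type replicate 3 was the one wild-type value within the ScAtrxKO range, and the log2 fold change was 0.09 (95% interval -0.04 to 0.22, limma adjusted p = 0.329). Without wild-type replicate 3 it was 0.15 (adjusted p = 0.0990).

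Gata1 was the only one of the GATA factors with a lower mean in ScAtrxKO testes. Its normalized log2 values were 8.02, 7.96 and 7.93 in ScAtrxKO testes, against 8.08, 8.12 and 8.04 in wild-type testes. All 3 ScAtrxKO values lay below all 3 wild-type values, as they did for 17.6% of all tested rows. The log2 fold change was -0.10 (standard error 0.0441, 95% interval -0.21 to -0.002, unadjusted p = 0.0461 and adjusted p = 0.165 from limma), so it did not pass. Its intensities were low, 65.4, 73.5 and 64.7 in ScAtrxKO testes and 82.9, 94.9 and 76.0 in wild-type testes, and its detection p reached 0.00822 on one array. Of 6 tested markers of red blood cells and mast cells, the other sources of Gata1 RNA, 1 rose and 0 fell, namely Alas2, the heme synthesis enzyme of erythroid cells, by 1.23 (standard error 0.0471, adjusted p = 2.05e-05), and the summed level of the list was 9784 to 13316 on ScAtrxKO arrays and 8102 to 9484 on wild-type arrays, on intensities scaled to a common median. Of its 13 rows, 7 were detected on 0 arrays, among them Epor, Tal1 and Gfi1b. The share called of the 6 tested was 16.7%, against 12.97% of all tested rows. The part of these cells in the Gata1 values was not tested.

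A promoter window of Gata1 is printed because Gata1 was the factor that stood apart at the lower level, and a promoter window of Tcf21 because it had the smallest p of the group. Both windows come from RefSeq (build GRCm38.p6), run from 250 bases before to 50 after the start of the gene and are written 5' to 3' on the strand of the gene, the minus strand for both. Capitals mark any match to 4 motifs, searched on both strands. The GATA motif was spelled AGATAA, while the same motif could also be read as AGATAG, and with a different opening letter it was searched as TGATAA and, in its last spelling, as TGATAG. The SOX motif was spelled ACAAAG, with a further spelling of ACAATG. The NR5A1 motif was spelled CAAGGTC, with a further spelling of CAAGGCC. The E-box bound by TCF21 and its partners was spelled CAGCTG. No match overlaps another in the windows printed.
Gata1 (chrX:7967861-7968160): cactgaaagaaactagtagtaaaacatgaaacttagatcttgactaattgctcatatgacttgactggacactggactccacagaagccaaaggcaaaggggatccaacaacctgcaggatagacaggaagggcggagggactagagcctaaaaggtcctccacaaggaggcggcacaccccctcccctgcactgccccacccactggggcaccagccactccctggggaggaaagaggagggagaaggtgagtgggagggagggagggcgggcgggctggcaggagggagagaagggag
Tcf21 (chr10:22820094-22820393): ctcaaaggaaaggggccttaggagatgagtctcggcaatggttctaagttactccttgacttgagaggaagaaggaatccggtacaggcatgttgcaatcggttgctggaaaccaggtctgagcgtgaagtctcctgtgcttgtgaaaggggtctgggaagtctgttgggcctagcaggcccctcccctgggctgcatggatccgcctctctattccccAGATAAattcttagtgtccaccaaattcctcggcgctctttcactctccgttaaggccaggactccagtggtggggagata
The Tcf21 window held 1 GATA match that starts 31 bases upstream of the start, and the Gata1 window held no match to any of the motifs, nor did that of Sox8. Among all 32851 windows of that length, 29.8% held a GATA match, 28.6% a SOX match, 9.88% an NR5A1 match and 16.3% the E-box. A match is a description of the letters only. Which start of a gene is used in Sertoli cells was not tested, so a window need not be the promoter used there. Windows for 3 of the 8 transcription factors were found, those of Sox8, Gata1 and Tcf21.

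Dmrt1, which in mouse keeps the postnatal Sertoli cell from taking on granulosa cell character, had the largest standard error of the 8 genes (0.0856). It had normalized log2 values of 8.25, 8.0 and 7.91 in ScAtrxKO testes, against 8.05, 7.92 and 7.95 in wild-type testes. ScAtrxKO replicate 1 was above and ScAtrxKO replicate 3 below every wild-type value. The log2 fold change was 0.07 (95% interval -0.12 to 0.27, adjusted p = 0.625), and it was -0.024 without ScAtrxKO replicate 1. Germ cells are the other source of Dmrt1 RNA, and of 9 tested germ cell markers 4 fell, 0 rose and 5 did not pass. The share called was 44.4%, against 12.97% of all tested rows. Of the 9, 7 had a negative log2 fold change and 2 a positive one, among the latter Stra8 with 0.27 (limma adjusted p = 0.110). Kit, the receptor of differentiating spermatogonia, fell by 0.35 (limma adjusted p = 0.00351), Uchl1, an enzyme abundant in spermatogonia, fell by 0.36 (adjusted p = 0.00446) and Sohlh1, a transcription factor of spermatogonia, fell by 0.49 (adjusted p = 0.00710). On log2 intensities with quantile normalization 2 of the 4 calls were lost, those of Uchl1 (adjusted p = 0.0592) and Sohlh1 (0.0565). The summed level of the list was 9866 to 10325 on ScAtrxKO arrays and 12597 to 13724 on wild-type arrays, and Ddx4, Sycp3, Mael and Dmc1 were detected on 0 arrays. The part of these cells in the Dmrt1 values was not tested.

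Nr5a1 had normalized log2 values of 8.25, 8.22 and 8.28 in ScAtrxKO testes, against 8.11, 8.20 and 8.16 in wild-type testes. All 3 ScAtrxKO values were above all 3 wild-type values, as they were for 16.2% of all tested rows, though ScAtrxKO replicate 2 exceeded wild-type replicate 2 by little. The log2 fold change was 0.10 (standard error 0.0437, 95% interval -0.005 to 0.20, unadjusted p = 0.0589 and adjusted p = 0.194 from limma). Before normalization its intensities were 122, 156 and 178.5 in ScAtrxKO testes and 90.2, 118 and 104 in wild-type testes. Leydig cells also express Nr5a1, and of 7 Leydig cell markers tested 3 rose, 0 fell and 4 did not pass. The share called was 42.9%, against 12.97% of all tested rows. Of the 7, Lhcgr, Star and Hsd3b1 were detected on ScAtrxKO arrays only, the genotype in which they were higher. The detection filter thus partly fixed the direction of this count. With log2 quantile normalization or neqc the call of Lhcgr was lost and 2 were kept, those of Cyp11a1 and Insl3. The summed level of the Leydig list was 5499 to 9328 on ScAtrxKO arrays and 3252 to 4581 on wild-type arrays. Hsd3b6, Fdx1, Akr1c14 and Hsd17b3 were detected on 0 arrays. Most of the sum came from Insl3 and Cyp17a1, the brightest rows of the list. Cyp17a1 overlapped between the genotypes, with a log2 fold change of 1.10 (95% interval -0.12 to 2.32, limma adjusted p = 0.218). In whole testes, fewer cells of a type and less RNA in each cell cannot be told apart, and the part of Leydig cells in the Nr5a1 values was not tested.

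Tcf21 had the largest log2 fold change and the smallest p of the 8 genes. Its normalized log2 values were 10.65, 10.72 and 10.84 in ScAtrxKO testes, against 10.47, 10.60 and 10.63 in wild-type testes. The lowest ScAtrxKO value was just above the highest wild-type value. The log2 fold change was 0.17 (standard error 0.0641, 95% interval 0.02 to 0.32, unadjusted p = 0.0276 and adjusted p = 0.119 from limma), which corresponds to a 1.13-fold higher level, and 0.23 would have been needed to pass with the same error. Before normalization the genotypes overlapped, with intensities of 1615, 2220 and 2359 in ScAtrxKO testes and 1450, 1629 and 1678 in wild-type testes. Markers of interstitial mesenchyme, the tissue in which Tcf21 is best known, were higher beside it by more: of 8 tested, 4 rose, 0 fell and 4 did not pass, with a median log2 fold change of 0.56. The share called was 50%, against 12.97% of all tested rows. Lum, a small proteoglycan of the matrix, rose by 1.15 (limma adjusted p = 2.20e-04), Dcn, which encodes the proteoglycan decorin, by 0.67 (adjusted p = 2.79e-04) and Pdgfra, a receptor of platelet-derived growth factor, by 0.69 (adjusted p = 0.00282). The summed level of the list was 12654 to 14449 on ScAtrxKO arrays and 7693 to 8260 on wild-type arrays. Col1a1 was detected on 0 arrays but was bright all the same, with a mean intensity of 2791 in ScAtrxKO and 1194 in wild-type testes and a lowest detection p of 0.0326. The part of mesenchymal cells in the Tcf21 values was not tested.

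How small a change could have been seen depends on the scale. The deposited values had been variance stabilized, which compresses differences of dim genes, and a log2 fold change on that scale understates the change of a gene whose intensity is near background. For the bright factors the scale hardly mattered: on log2 intensities with quantile normalization Sox9 had -0.14, Gata6 0.10 and Tcf21 0.18. For the dim ones it did, as Gata1 had -0.51 on that scale (95% interval -0.90 to -0.12, limma adjusted p = 0.118), Nr5a1 0.32 (0.04 to 0.61, adjusted p = 0.159), Dmrt1 0.28 (-0.76 to 1.33, adjusted p = 0.712) and Gata4 0.19 (-0.20 to 0.58, adjusted p = 0.483). In fold terms, the intervals on that scale reached a level of 0.535 of wild-type for Gata1 and 2.51-fold for Dmrt1, so that a 1.5-fold difference cannot be left out for these factors, nor for Nr5a1, whose interval reached 1.53-fold. With the deposited scale the change that would have passed, at the standard error of each gene, was between 0.16 (Nr5a1 and Gata1) and 0.31 (Dmrt1) in log2 units.

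**Figure D2:**
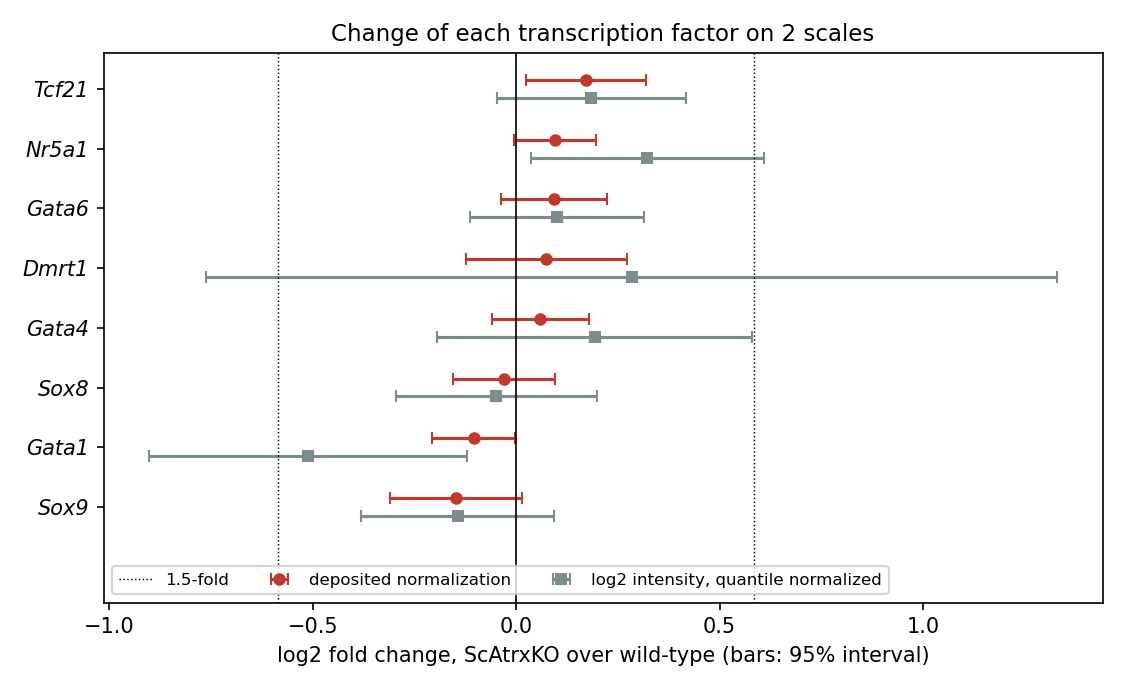
Log2 fold change of each transcription factor, ScAtrxKO over wild-type, with its 95% interval, on the deposited normalization (red circles) and on log2 intensities with quantile normalization (grey squares), with dotted lines at 1.5-fold. On the deposited scale every interval lies inside the dotted lines, while on the log2 scale those of Gata1, Dmrt1 and Nr5a1 cross at least 1 of them.

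The 8 factors did not share 1 pattern over the arrays. Likeness was measured as the root mean square difference, over the 6 arrays, between the deviations of 2 genes from their own means on the normalized log2 scale. Gata4 and Nr5a1 were the closest pair (0.0579), Nr5a1 was also the closest factor to Tcf21 (0.0670), Gata6 (0.0761) and Sox8 (0.0805), and Sox9 was nearest to Gata1 (0.113). Among all tested rows, Cd93 (0.0190) and Trp53 (0.0301) were most like Tcf21, Frrs1l (0.00581) and Dnaic1 (0.00744) most like Gata1, and Uqcr11 (0.0312) and the row named EG638695 (0.0329) most like Sox9. The nearest rows were Zbtb2 (0.0143) and Cst12 (0.0160) for Sox8, Sel1l (0.0177) and Lpgat1 (0.0183) for Gata4, Hacd4 (0.0162) and Dph1 (0.0190) for Gata6, Mcm4 (0.0317) and Mrpl11 (0.0341) for Dmrt1, and the rows named C030027H14RIK (0.0134) and GM53 (0.0137) for Nr5a1. With so many rows and so few arrays, near neighbours of this kind are a description only.

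Of 20 tested relatives (other SOX, GATA, DMRT, NR5A, EGR and TCF21-like genes), 1 rose, 1 fell and 18 did not pass, with a median log2 fold change of -0.01. That is 10% of the relatives, against 12.97% of all tested rows called in either direction. Sox18, a SOX factor of endothelial cells, had normalized log2 values of 9.22, 9.29 and 9.22 in ScAtrxKO testes, against 8.87, 9.02 and 9.0 in wild-type testes, and rose by 0.28 (standard error 0.0526, adjusted p = 0.0130 from limma). The ScAtrxKO values lay apart above the wild-type values, but the call was lost without ScAtrxKO replicate 2 (adjusted p = 0.0527) and on log2 intensities with quantile normalization (0.44, adjusted p = 0.0620). Of 7 tested endothelial markers 6 rose and 0 fell, for example Cdh5, the cadherin of endothelial junctions, by 0.46, and their summed level was 2397 to 2554 on ScAtrxKO arrays and 1690 to 1740 on wild-type arrays, with Kdr detected on 0 arrays. The share called was 85.7%, against 12.97% of all tested rows. On log2 intensities with quantile normalization 3 of these 6 calls were kept, those of Pecam1, Cdh5 and Tek. The part of endothelial cells in the Sox18 values was not tested. Egr2, a zinc finger factor induced by growth signals, had values of 8.11, 8.05 and 8.18 in ScAtrxKO testes, against 8.40, 8.28 and 8.49 in wild-type testes. It fell by 0.28 (standard error 0.0628, adjusted p = 0.0252), a call lost on log2 intensities with quantile normalization (-0.87, adjusted p = 0.0592) and without ScAtrxKO replicate 1 (0.0663), ScAtrxKO replicate 2 (0.0854), wild-type replicate 1 (0.0671) or wild-type replicate 3 (0.0558).

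Of 10 tested regulators of the gonad, 2 rose, 0 fell and 8 did not pass, a share of 20% against 12.97% of all tested rows. Lhx9, a LIM homeobox factor that the early gonad needs, had normalized log2 values of 7.99, 8.08 and 8.05 in ScAtrxKO testes, against 7.87, 7.79 and 7.81 in wild-type testes. Its genotypes lay apart, and it rose by 0.22 (standard error 0.0444, adjusted p = 0.0176 from limma), with 1.58 on log2 intensities with quantile normalization. The call was lost without ScAtrxKO replicate 2 (adjusted p = 0.0685) or wild-type replicate 2 (adjusted p = 0.0706). Tcf3, which encodes the E protein partner of factors such as TCF21, had intensities of 299, 364 and 486 in ScAtrxKO testes, against 201, 247 and 247 in wild-type testes. It was detected on 0 of the 3 ScAtrxKO arrays and 2 of the 3 wild-type arrays although its ScAtrxKO intensities were the higher ones, so no fold is given. Its adjusted p was 0.0440 on the deposited scale, and it passed under 5 of 15 alternatives. Sry and Nr0b1 were detected on 0 arrays.

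Of 18 tested genes known as targets or products of these factors, 4 rose, 1 fell and 13 did not pass. The share called was 27.8%, against 12.97% of all tested rows, and the difference between the shares was not tested. Of the 18, Lhcgr, Star and Hsd3b1 passed the detection filter through ScAtrxKO arrays only, and Ptgds and Col2a1 through wild-type arrays only. One of the 13, Aard, had the top normalized value of every array, so that quantile normalization fixed its change at 0. Their median log2 fold change was 0.09. The 4 that rose were Insl3, Cyp11a1, Lhcgr and Inha, and 3 of them are Leydig cell genes. Insl3, a peptide hormone of Leydig cells, had normalized log2 values of 11.47, 11.45 and 11.67 in ScAtrxKO testes, against 11.04, 10.66 and 10.73 in wild-type testes, and rose by 0.72 (standard error 0.103, adjusted p = 0.00455 from limma). Cyp11a1, the enzyme that starts steroid synthesis from cholesterol, had values of 8.78, 8.81 and 8.88 in ScAtrxKO testes, against 8.23, 8.21 and 8.30 in wild-type testes. The genotypes lay far apart, with a rise of 0.58 (standard error 0.0465, adjusted p = 4.42e-04) and of 1.31 on log2 intensities with quantile normalization. Lhcgr, the receptor of luteinizing hormone, was detected on 3 ScAtrxKO arrays and 0 wild-type arrays. Its measured ratio, ScAtrxKO over wild-type, was 1.16-fold on the deposited scale (limma adjusted p = 0.0377), with a 95% interval of 1.07-fold to 1.27-fold. On log2 intensities with quantile normalization it was 2.20-fold, with an interval of 1.41-fold to 3.43-fold. As Lhcgr was detected on 0 wild-type arrays, its wild-type level is uncertain. Raising the wild-type values to at least the lowest detected signal of each array left the 1.16-fold ratio unchanged. The wild-type values already lay at or above that signal, so this step could not change the ratio and does not bound the wild-type level. The call was lost with neqc (adjusted p = 0.0913), log2 quantile normalization (0.0644) and median scaling (0.0653), and without any single array other than wild-type replicate 3, with adjusted p-values of 0.0631 to 0.128.

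Promoter windows of Insl3 and Cyp11a1 are printed because both genes rose and both are known to be driven by NR5A1, whose own level did not pass the test. They come from the same RefSeq table, on the plus strand, with the same motifs in capitals. The Cyp11a1 window is the one at the downstream of 2 annotated starts.
Insl3 (chr8:71689002-71689301): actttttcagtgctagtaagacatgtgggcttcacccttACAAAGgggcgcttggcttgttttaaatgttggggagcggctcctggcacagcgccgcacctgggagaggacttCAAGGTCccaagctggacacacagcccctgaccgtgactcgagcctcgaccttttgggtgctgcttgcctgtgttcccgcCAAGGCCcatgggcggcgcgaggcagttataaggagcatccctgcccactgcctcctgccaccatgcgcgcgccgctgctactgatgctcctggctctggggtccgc
Cyp11a1 (chr9:58014702-58015001): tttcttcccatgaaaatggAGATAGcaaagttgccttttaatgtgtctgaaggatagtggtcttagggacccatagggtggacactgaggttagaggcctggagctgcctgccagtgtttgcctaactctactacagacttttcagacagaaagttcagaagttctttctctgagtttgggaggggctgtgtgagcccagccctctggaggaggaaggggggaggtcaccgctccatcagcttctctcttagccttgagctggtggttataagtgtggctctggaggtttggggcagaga
The Insl3 window held 2 NR5A1 matches, which start 137 and 57 bases upstream of the start, and 1 SOX match 211 bases upstream. The Cyp11a1 window held 1 GATA match 231 bases upstream and no match to either NR5A1 spelling searched. The window of Lhcgr held none of the spellings searched. Other spellings of the motifs were not searched, so no match does not mean that a binding site is absent.

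Products of the Sertoli cell itself did not move as a block. Inha, the alpha subunit of inhibin, had normalized log2 values of 12.53, 12.47 and 12.33 in ScAtrxKO testes, against 11.74, 11.94 and 11.99 in wild-type testes, and rose by 0.56 (standard error 0.0785, adjusted p = 0.00431 from limma). Tesc, which encodes the calcium-binding protein tescalcin, had values of 8.01, 8.21 and 8.26 in ScAtrxKO testes, against 8.61, 8.71 and 9.08 in wild-type testes, and fell by 0.64 (standard error 0.120, adjusted p = 0.0134). Its genotypes lay apart, and the size of the fall was 1.58 on log2 intensities with quantile normalization, where it did not pass (adjusted p = 0.0537). Amh, the Sertoli cell hormone whose promoter SOX9, NR5A1 and GATA4 bind, had values of 8.58, 8.45 and 8.91 in ScAtrxKO testes, against 8.51, 8.59 and 8.67 in wild-type testes. The ScAtrxKO values enclosed the wild-type values, and its log2 fold change was 0.06 (95% interval -0.19 to 0.31, adjusted p = 0.777). Fshr, the receptor of follicle-stimulating hormone, had -0.02 (95% interval -0.16 to 0.12) and Dhh, a hedgehog ligand secreted by Sertoli cells, had -0.0002 (95% interval -0.13 to 0.13). Amh, Fshr and Dhh did not pass and were chosen for naming after their values were seen.

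**Figure D3:**
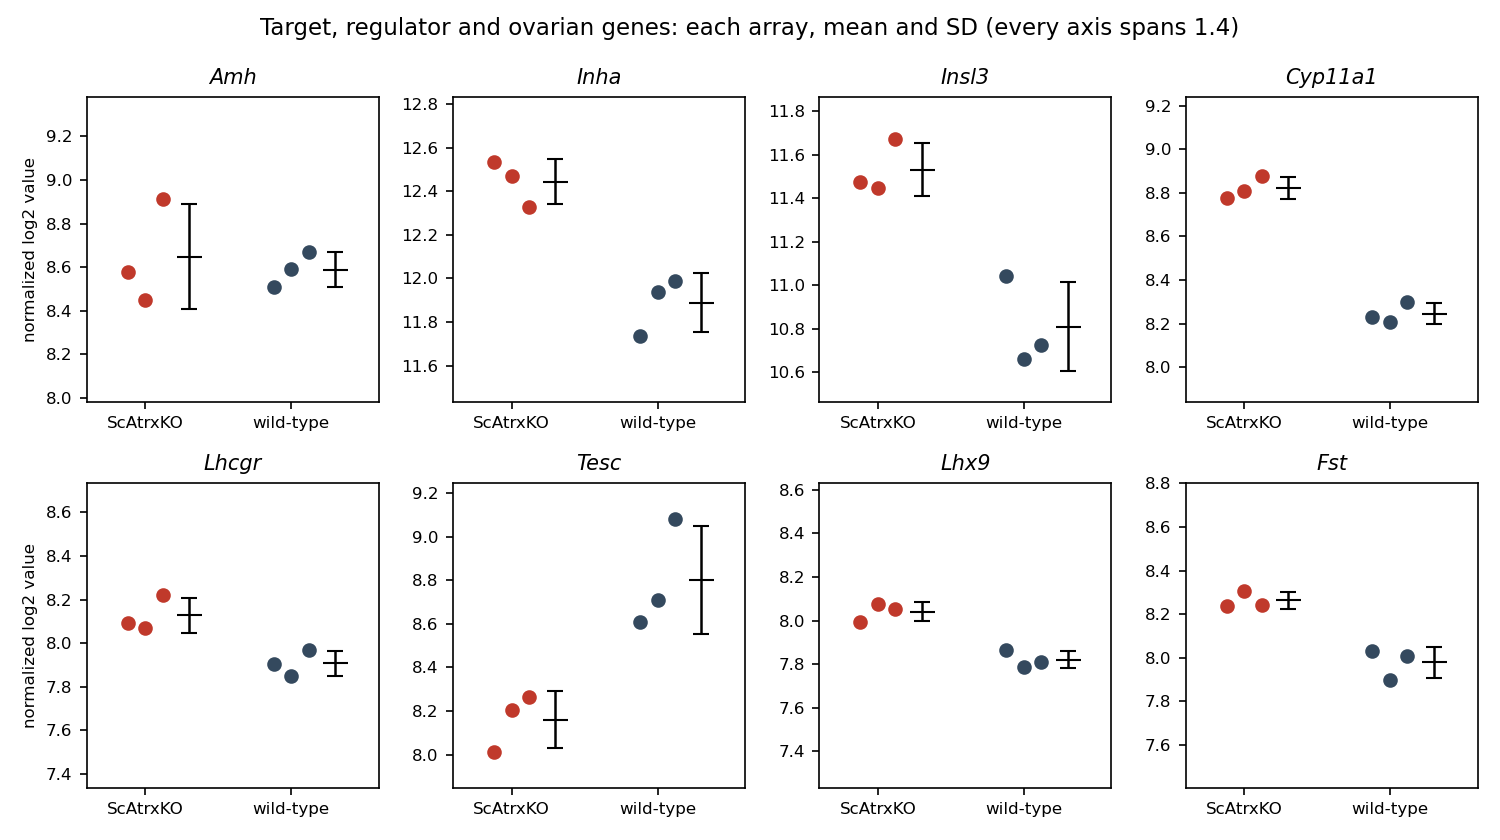
Normalized log2 value (vertical axis, the same span in each panel) of Amh, Inha, Insl3, Cyp11a1, Lhcgr, Tesc, Lhx9 and Fst in the 3 ScAtrxKO testes (red) and the 3 wild-type testes (dark blue), with the mean and SD of each genotype. Amh overlaps between genotypes, Tesc is lower in ScAtrxKO testes and the other 6 are higher.

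Of 8 tested genes of ovarian fate, 1 rose, 0 fell and 7 did not pass, a share of 12.5% against 12.97% of all tested rows. Fst, which encodes the activin antagonist follistatin, had normalized log2 values of 8.24, 8.31 and 8.24 in ScAtrxKO testes, against 8.03, 7.90 and 8.01 in wild-type testes. It rose by 0.28 (standard error 0.0495, adjusted p = 0.00982 from limma), and by 1.16 on log2 intensities with quantile normalization. Rspo1 did not pass (limma adjusted p = 0.0516). It was detected on 2 ScAtrxKO and 0 wild-type arrays, at mean intensities of 43.5 and 6.6. All ScAtrxKO values stood above all wild-type values for 4 of the 8 genes and below for 0. Of all tested rows 16.2% stood above and 17.6% below. Among the 4, Wnt4 and Rspo1 passed the detection filter through ScAtrxKO arrays only, the genotype in which they were higher. The filter thus partly fixed the direction of this count. Lgr5 and Esr2 also entered through ScAtrxKO arrays only, and Rspo2 through a wild-type array only. Foxl2, the defining factor of granulosa cells, was detected on 0 arrays, with mean intensities of 3.43 in ScAtrxKO and 10.5 in wild-type testes, and Cyp19a1, the estrogen-forming aromatase, was likewise detected on 0 arrays.

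Sertoli cell markers, some of which are also among the targets above, gave 3 genes that rose, 0 that fell and 12 that did not pass among 15 tested, with a median log2 fold change of 0.01. The share called was 20%, against 12.97% of all tested rows. Espn, an actin-bundling protein of Sertoli cell junctions, rose by 0.47 (limma adjusted p = 0.00126), Trf, which encodes transferrin, by 0.39 (adjusted p = 0.0134) and the Wnt ligand gene Wnt6 by 0.62 (adjusted p = 0.0200). On log2 intensities with quantile normalization the calls of Trf (0.0608) and Wnt6 (0.0908) were lost, and that of Wnt6 also with neqc (0.0694). Aard is among the 12 that did not pass, with its change fixed at 0. The summed level of the list was 83458 to 90217 on ScAtrxKO arrays and 91419 to 94416 on wild-type arrays, but 70.9% of the sum came from its 3 brightest rows, Aard, Cldn11 and Cst9. Without them, an alternative chosen after seeing the data, the sums overlapped, at 26177 to 26920 on ScAtrxKO arrays and 24655 to 27614 on wild-type arrays. Gjb2 was detected on 0 arrays. Of 4 tested peritubular myoid markers, 1 rose, the intermediate filament gene Des, by 0.61 (adjusted p = 0.00167), and 0 fell. This was 25% of the list, against 12.97% of all tested rows. Acta2 had -0.18 (limma adjusted p = 0.106), Actg2 0.03 and Mylk 0.01, and none of these passed. The summed levels were 12065 to 13339 on ScAtrxKO and 12486 to 13809 on wild-type arrays, with Myh11, Cnn1 and Tagln detected on 0 arrays. All 11 macrophage markers tested rose, for example the lysozyme gene Lyz2 by 0.95 (limma adjusted p = 0.00117). The share called was 100%, against 12.97% of all tested rows. On log2 intensities with quantile normalization 8 of the 11 passed, where 774 of the 13026 tested rows did. The summed level of the macrophage list was 6354 to 7202 on ScAtrxKO arrays and 2291 to 3436 on wild-type arrays. The part of such shifts in the values of the 8 transcription factors was not tested.

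**Figure D4:**
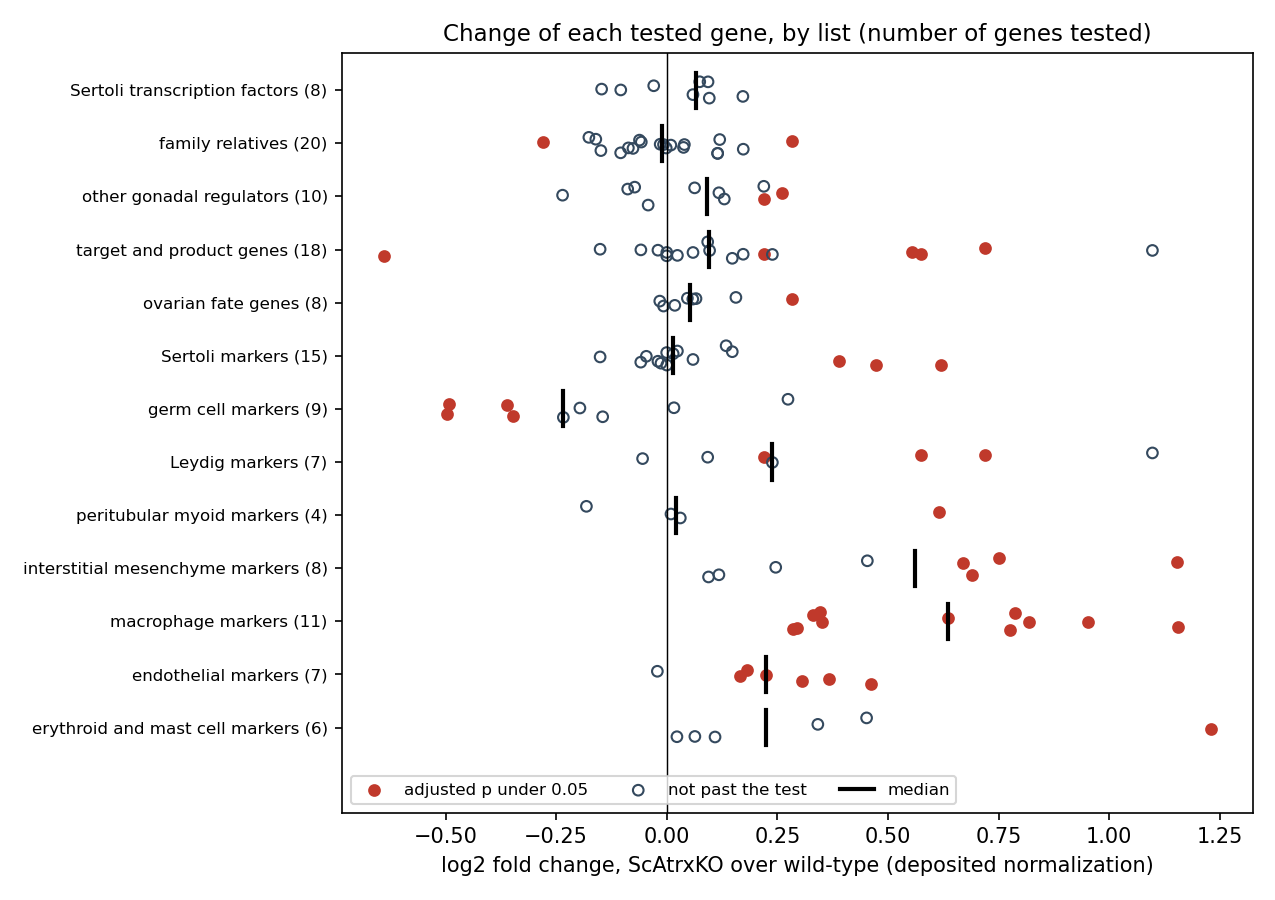
Log2 fold change of each tested gene (points), ScAtrxKO over wild-type on the deposited normalization, by list from top to bottom, with filled points for an adjusted p under 0.05 and a bar at the median. All 8 Sertoli transcription factors are open points close to 0, while all 11 macrophage markers are filled and above 0.

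Atrx itself gave no check of the genotypes, as it was detected on 0 of the 6 arrays, with intensities of 2.4, 3.4 and 3.3 in ScAtrxKO testes and 5.6, 2.2 and 2.8 in wild-type testes. Across all tested rows, 973 rose and 717 fell at an adjusted p under 0.05, and 169 (1.30%) also reached a 1.5-fold change. Between 10493 and 10917 rows were detected on the ScAtrxKO arrays and between 10624 and 10803 on the wild-type arrays. With 3 arrays against 3, a two-sided exact permutation test of a single gene cannot go below p = 0.1, and the number of arrays limits the precision.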

How the data were processed

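Whole testes were measured on 6 arrays. The authors used GenomeStudio to subtract background and average probes to gene rows, and deposited an intensity per row and array with a detection p-value. They then stabilized the variance and quantile normalized in lumi, and deposited these log2 values, which are used here. The mutant columns, named M1 to M3, were taken as ScAtrxKO replicates 1 to 3 by number. The value table whose columns carry the sample names held the same values for all but 7 rows. The columns of unmapped samples numbered 0. Versions of the authors' tools are not given in the sources used here. The authors' deposited fold changes, p-values and GO results were not used.

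Rows with a detection p under 0.01 on at least 1 array were fitted in R 4.3.3 with limma 3.58.1 (lmFit and eBayes, genotype only), the filter and test that the paper names, and adjusted by Benjamini-Hochberg over all 13026 rows. The procedure was tested on simulated data. List symbols were matched to rows by RefSeq symbol or synonym. The summed marker levels use intensities floored at 1 and scaled to a common median. Named genes are all 8 measured factors, up to 6 called genes of each related list and up to 3 of each marker list with the smallest p. Stra8, Mylk, Rspo1, Cyp17a1 and Sox7 were named in addition after their values were seen. Further genes were named only for the arrays on which they were detected. The members and lists were chosen with earlier results of these data known. Among the 17748 rows that the detection filter removed, 367 had a mean intensity above 200. Neqc was run on intensities already background-subtracted, with an offset of 16. Slides and scan dates were not given in the sources used here.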

Additional observations from a re-analysis of the deposited data

How the results depend on the processing

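Under 16 alternatives (other normalizations, filters, variance models, the replicate block, each array left out), 0 of 8 transcription factors passed, the lowest adjusted p of 128 values being 0.0594. A fold limit of 1.5 also left 0. Of these 128 values 2 turned sign, both without ScAtrxKO replicate 1: Dmrt1 had -0.024 and Sox8 0.018. With 1 array left out, Dmrt1 ranged from -0.024 to 0.15 and Sox8 from -0.077 to 0.018. The cause was not tested.

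Other counts moved, and why was not tested. All tested rows gave 1690 calls, 1112 with neqc, 774 with log2 quantile normalization, 773 with median scaling, 169 with a fold limit and 823 to 1491 with 1 array left out. Relatives gave 2 calls, and 1 with neqc, log2 quantile or median scaling. They gave 4 with an intensity trend, robust or not, 0 with a fold limit and 0 to 2 with 1 array left out. The 1 call with neqc was Sox18. Log2 quantile normalization and median scaling kept neither Sox18 nor Egr2, and the 1 call with log2 quantile normalization was Sox7 (0.82, limma adjusted p = 0.0443). Regulators gave 2 calls, 1 with neqc, log2 quantile, median scaling, no detection filter or detection on 3 arrays, 4 with an intensity trend, robust or not, 0 with a fold limit and 0 to 2 with 1 array left out. Target genes gave 5 calls, 3 with neqc, log2 quantile or median scaling, 2 with a fold limit and 4 to 5 with 1 array left out. Ovarian genes gave 1 call, 2 with array weights, no detection filter or an intensity trend, robust or not, and 0 with a fold limit. Over 18 named genes, 33 of 287 values lost their call, 2 turned sign and 252 kept their direction and their side of the threshold. Of the 287, 128 belong to the 8 transcription factors, which had no call to lose, so all 33 losses fall among the other genes.

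Same-numbered arrays of the 2 genotypes deviated together with correlations of 0.00294, 0.0467 and 0.0803, and 4 of 6 arrays were closest to their own number. The correlations were low but most arrays were closest to their own number, so these values do not settle whether the numbers mark pairs. The main fit did not use them as pairs. With the numbers as a block, the limma adjusted p of Tcf21 was 0.0650 and that of Gata1 0.210, against 0.119 and 0.165 without. With the replicate block 1557 rows passed, against 1690 without, and 0 transcription factors. Gata1, Dmrt1, Nr5a1 and Gata4 had the lowest intensities of the transcription factors. Their log2 fold changes also differed most between the deposited scale and log2 intensities with quantile normalization.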
